A study of Homo sapiens with 6 samples.

Results

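The genes described here are 10 genes of interleukin 1 (IL1) and chemokine signalling: the cytokines IL1A and IL1B, the antagonist IL1RN, the chemokines CXCL1, CXCL2, CXCL3, CXCL8 and CCL20, and the feedback inhibitors NFKBIA and TNFAIP3. They were chosen by name, out of 34486 genes to which transcripts could be matched, and all 10 were among the 13047 genes that had enough reads to be tested. RNA-seq was performed on MCF10A cells, an immortalised and non-tumorigenic line of human breast epithelium. In 3 libraries (siPDCD4) the cells had been transfected with siRNA against PDCD4, an RNA-binding tumour suppressor, and in 3 (siCT) with a control siRNA. Both siRNAs were given at 10 nM, the medium was renewed after 6 h and RNA was taken at 48 h. The cells of all 6 libraries were wild type and grew in medium with 5% horse serum and 20 ng/ml epidermal growth factor. The medium also held 10 µg/ml insulin, 500 ng/ml of the glucocorticoid hydrocortisone and 10 ng/ml cholera toxin. Besides these supplements, of which cholera toxin is itself a bacterial product, the labels name no added cytokine or microbial product. These are thus levels of 1 line in its growth medium under transient silencing. Groups follow the titles of the samples, since the treatment field reads the same for all 6.

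IL1A and IL1B are secreted or released cytokines that bind the receptor IL1R1, which then recruits its partner IL1RAP. The receptor complex signals through MYD88 and IRAK kinases to the transcription factor NF-kB, which in epithelial cells switches on chemokine genes that draw in neutrophils and lymphocytes, and also switches on NFKBIA and TNFAIP3, which shut the pathway off again. Many of these mRNAs are short-lived because AU-rich elements in their 3' UTRs recruit decay factors.

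The silenced gene was examined first. PDCD4 stood at 90.4, 89.0 and 61.1 CPM in the 3 siCT libraries and at 9.15, 7.43 and 8.62 CPM in the 3 siPDCD4 libraries, given here and below in the order of the replicate numbers. CPM are counts scaled to a common library size with TMM factors, with an offset for transcript length. The level of PDCD4 fell with a log2 fold change of -3.25 ± 0.17 (SE, n = 3 per group, edgeR adjusted p = 2.15e-05). Totals of estimated counts ranged from 13410441 to 21828931 per library. The library of siCT replicate 3 had the lowest total and the lowest share of counts on protein-coding genes (76.2%, against 78.7% to 86.4% in the others), and it stood apart on the first principal component, at 27.1 where the other 5 lay at or below 7.78. All 10 mammary basal epithelial markers were tested and none passed an FDR of 5% in edgeR or limma-voom, while DESeq2 called 1 (TP63). At an unadjusted p under 0.05 in edgeR there were 5 of the 10, against 8.62% of all tested genes. Of these 5, 3 had a log2 fold change above 0 and 2 below. KRT5, a keratin of basal cells, lay between 1916 and 2601 CPM. TP63, a transcription factor of basal cells, was at 52.8, 54.3 and 50.8 CPM in siCT and 64.9, 72.1 and 65.9 CPM in siPDCD4 (log2 fold change 0.36 ± 0.09, edgeR adjusted p = 0.180). The desmosome gene DSG3 was at 188, 185 and 143 CPM in siCT and 137, 140 and 122 CPM in siPDCD4 (-0.37 ± 0.11, edgeR adjusted p = 0.290). Of 15 leukocyte markers, 7 were at 0 in all 6 libraries, and PTPRC, which marks leukocytes in general, stayed between 0.140 and 0.485 CPM. The summed leukocyte markers came to 12.4 to 16.6 CPM in siCT and 12.96 to 13.25 CPM in siPDCD4. The summed markers of fibroblasts (9 genes) came to 47.3 to 72.2 CPM in siCT and 27.7 to 58.0 CPM in siPDCD4, of which the proteoglycan gene DCN gave 11.7 to 41.9 CPM, and those of endothelium (6 genes) to at most 4.97 CPM. Whether these bear on the genes below was not tested. The labels do not tell whether replicates were separate cultures, and the p-values thus measure a spread that may be technical. In bulk RNA, fewer cells with a transcript and less transcript per cell cannot be told apart.

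A short word was shared by the promoters of 4 of the 5 chemokine genes and by that of NFKBIA. In RefSeq promoter windows (GRCh38.p14, 250 bases before to 50 bases after a transcription start), the letters GGAATTTCC, a kappaB-type word, were found on the sense strand in CXCL1, CXCL2, CXCL3 and CXCL8 and on the other strand, where the sense strand reads GGAAATTCC, in NFKBIA. In these 5 genes the word began between 77 and 91 bases before the start. Counted on both strands, it is held by 0.46% of 35116 promoter windows. The looser word GGANNTTCC, searched on both strands and held by 4.56% of the windows, matched the same place in these 5 genes, 1 more in NFKBIA and 1 in TNFAIP3, so 6 of the 10 genes had a match. Both words were written with the known sites of these genes in view, so the shares beside them are no test. The looser word contains TTCC, the reverse complement of the ETS core GGAA. The windows of IL1A, IL1B, IL1RN and CCL20 did not hold these letters. Other kappaB-type words were not searched in any of the 10 genes. The stretch from 100 to 41 bases before the start is given for the 6 genes on the sense strand, because it shows the shared word and its surroundings, with the match in capitals.
CXCL1, chr4:73869293-73869352, plus strand: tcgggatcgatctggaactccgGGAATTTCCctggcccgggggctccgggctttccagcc
CXCL2, chr4:74099236-74099295, minus strand: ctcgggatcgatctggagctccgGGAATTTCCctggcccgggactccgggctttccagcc
CXCL3, chr4:74038730-74038789, minus strand: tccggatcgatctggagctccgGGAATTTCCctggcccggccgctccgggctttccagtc
CXCL8, chr4:73740469-73740528, plus strand: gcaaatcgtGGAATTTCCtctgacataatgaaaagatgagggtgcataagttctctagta
NFKBIA, chr14:35404790-35404849, minus strand: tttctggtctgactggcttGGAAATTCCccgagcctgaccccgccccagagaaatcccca
TNFAIP3, chr6:137867159-137867218, plus strand: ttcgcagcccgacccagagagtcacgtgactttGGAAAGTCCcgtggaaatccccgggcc

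CXCL1, CXCL2 and CXCL3 carry the word in nearly the same surroundings, and those of CXCL8 and NFKBIA read differently. The AP-1 word TGANTCA (either strand, 7.71% of windows) was found for IL1A, IL1RN and CXCL8. A TATAAA box (forward strand, 7.33% of windows) lay 29 to 31 bases before a start in CXCL8, CCL20 and 1 of 3 windows of IL1RN, and 239 bases before a start of IL1A. These matches are letters in a window and were not tested for binding.

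At the other end of the mRNA, the nonamer TTATTTATT of AU-rich elements was counted in the 3' UTR of the canonical transcript of each gene. CXCL2 held 5, CXCL1 held 3, IL1B held 2, and CXCL3, CXCL8 and TNFAIP3 held 1 each, while IL1A, IL1RN, CCL20 and NFKBIA held none. Among 12570 tested genes with a 3' UTR, 9.98% held at least 1. The shorter word ATTTA occurred 13.97 times per kilobase in CXCL2, 10.4 in CXCL3, 9.84 in IL1B and 0 in IL1RN, against a median of 1.74 over the same 12570 genes. Windows of 30 bases that hold the densest run are given for 4 of the genes (GENCODE on GRCh38, sense strand), with ATTTA in capitals.
IL1B, chr2:112830003-112830032, minus strand: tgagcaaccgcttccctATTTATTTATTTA
CXCL1, chr4:73870665-73870694, plus strand: cttaggagaagtcttctATTTATTTATTTA
CXCL2, chr4:74097590-74097619, minus strand: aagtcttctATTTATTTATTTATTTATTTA
CXCL8, chr4:73743108-73743137, plus strand: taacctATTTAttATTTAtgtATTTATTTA

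The first question was whether these genes differed between PDCD4-silenced and control cells. At an FDR of 5% none of the 10 passed in edgeR, where 56 of 13047 tested genes passed (0.429%), 22 of them higher (0.169%) and 34 lower in siPDCD4 (0.261%). At an unadjusted p under 0.05 there were 3 of the 10, namely IL1A and IL1B on the higher and NFKBIA on the lower side, against 8.62% of all tested genes. In these same 3 genes the libraries of one group all lay beyond those of the other, which was so for 13.9% of all tested genes. DESeq2 called 1 of the 10, IL1B, where it called 181 of 13821 genes (1.31%), and limma-voom called none of the 10. The log2 fold change lay above 0 in 5 genes and below 0 in 5, with a median of 0.01 against -0.01 over all tested genes.

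**Figure D1:**
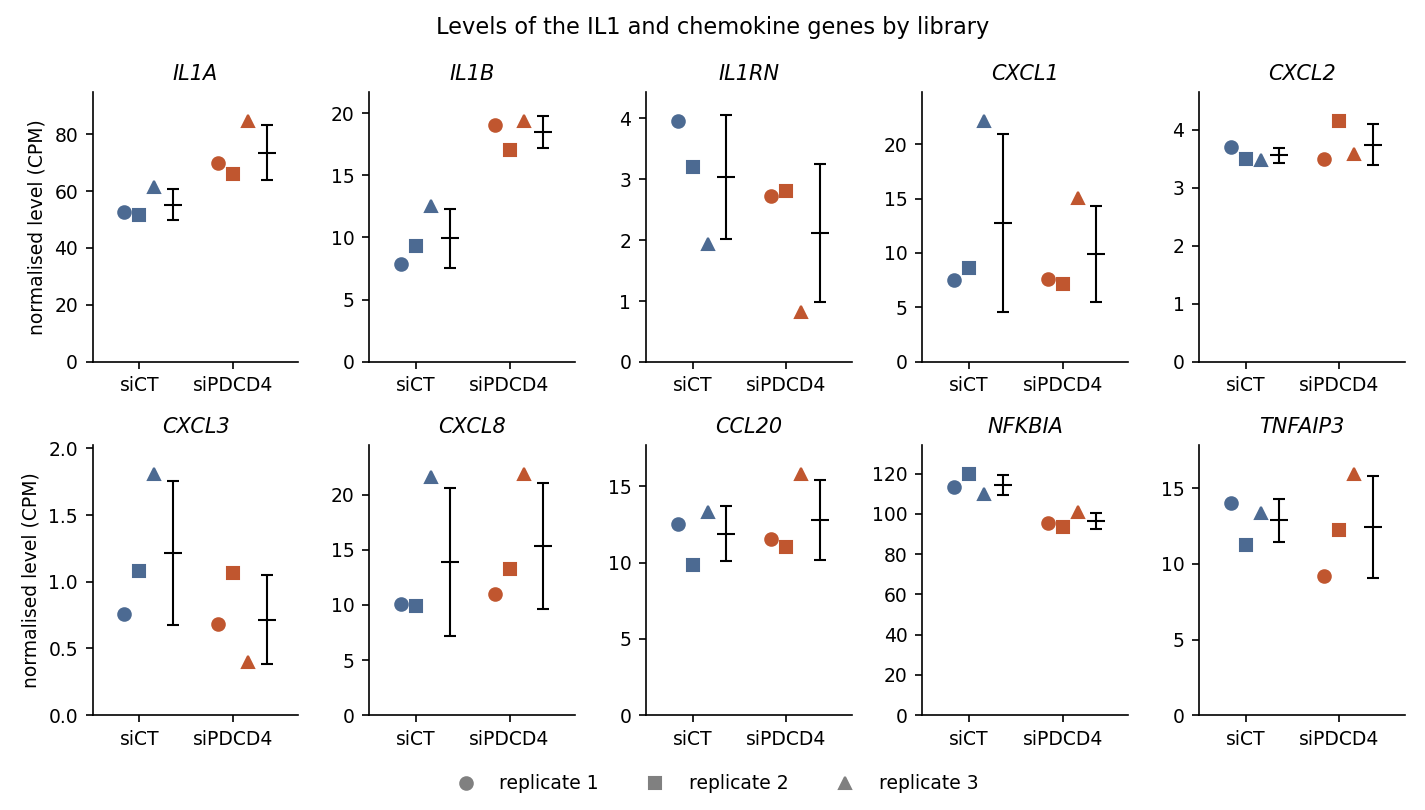
Levels of the 10 genes in normalised CPM (y axes, starting at 0) by group (x axes). Each symbol is 1 library, shaped by its replicate number, and the black bars give mean and SD (n = 3). The groups stand apart in IL1A, IL1B and NFKBIA, and CXCL1 and CXCL8 are highest in replicate 3 of both groups.

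IL1B encodes interleukin 1 beta, which is made as a precursor and cut by caspase 1. The gene lies on chromosome 2 from 112829751 to 112836816, on the minus strand. IL1B was at 7.87, 9.35 and 12.5 CPM in siCT, and at 19.0, 17.0 and 19.4 CPM in siPDCD4. Every siPDCD4 library thus lay above every siCT library, and siCT replicate 3 came nearest. The log2 fold change was 0.91 ± 0.18 (SE, n = 3 per group), a 1.88-fold difference with a 95% interval from 1.43 to 2.47, and the edgeR adjusted p was 0.0641. IL1B ranked 72 among the tested genes by p. It passed with DESeq2 (adjusted p = 0.00126) and, in edgeR, without siCT replicate 3 (log2 fold change 1.10, adjusted p = 0.0301). On all 6 libraries it also passed in edgeR without the low-count filter (adjusted p = 0.0105) and without the length offset (0.0149). The same held with the replicate block (edgeR adjusted p = 0.0457). Over all alternatives its adjusted p ranged from 0.00126 to 0.288. Its counts were assigned mainly to the transcript IL1B-201, with 91.7% ± 3.67 in siCT and 92.04% ± 0.92 in siPDCD4 (SD).

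IL1A, on chromosome 2 from 112773925 to 112784493, encodes interleukin 1 alpha, an alarm signal that keratinocytes and other epithelial cells hold ready in the cell. Its levels were 52.7, 51.5 and 61.4 CPM in siCT and 69.8, 66.1 and 84.6 CPM in siPDCD4. Again the groups did not overlap, and replicate 3 was the highest library of each group. The log2 fold change was 0.42 ± 0.12, with a 95% interval from 0.16 to 0.67, and did not pass (edgeR adjusted p = 0.242). Leaving out single libraries gave values between 0.31 and 0.50.

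IL1RN encodes the IL1 receptor antagonist, which occupies IL1R1 without signalling. It lies on chromosome 2 from 113099315 to 113134016 and was weakly covered, with 15 to 72 estimated counts per library. Its levels were 3.96, 3.20 and 1.94 CPM in siCT and 2.73, 2.81 and 0.814 CPM in siPDCD4. Replicate 3 was the lowest library of both groups, the opposite of IL1A and IL1B, and the groups overlapped. With a log2 fold change of -0.55 ± 0.44 and a 95% interval from -1.53 to 0.44, no difference was detectable, and levels from 0.345 to 1.36 times the control lay within the interval (edgeR adjusted p = 0.872). The log2 fold change was -0.80 without siPDCD4 replicate 1, -0.31 without siCT replicate 1 and -0.14 without siPDCD4 replicate 3, the lowest library. The counts were assigned mainly to IL1RN-202 (84.5% ± 16.5 in siCT and 77.2% ± 14.4 in siPDCD4), which starts at 113117897. The transcript IL1RN-205, which starts at 113127598, was estimated at 0 in all 6 libraries.

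Both receptor subunits for IL1 stood near the threshold, in opposite directions. The ligand-binding chain IL1R1 was at 17.5, 15.4 and 18.03 CPM in siCT and at 7.73, 9.88 and 11.5 CPM in siPDCD4. The accessory chain IL1RAP was at 60.7, 60.6 and 54.4 CPM in siCT and at 82.0, 82.2 and 77.5 CPM in siPDCD4. Neither gene had overlapping groups. The log2 fold changes, -0.81 ± 0.17 for IL1R1 and 0.46 ± 0.09 for IL1RAP, did not pass (edgeR adjusted p = 0.0896 and 0.0615). DESeq2 called both, and over all alternatives the adjusted p ranged from 0.00735 to 0.348 for IL1R1 and from 0.00107 to 0.303 for IL1RAP. The decoy receptor IL1R2 was not tested, with at most 0.155 CPM in any library. Of 15 tested genes of IL1 receptors and signalling (21 listed) none passed in edgeR or limma-voom, these 2 had an unadjusted p under 0.05, and the median log2 fold change was 0.07. Of 5 tested IL1 family ligands (12 listed) none passed in edgeR or limma-voom, with IL1A and IL1B at an unadjusted p under 0.05 and IL1B called by DESeq2. Of 6 tested genes of IL1 processing and the inflammasome (10 listed), 0 passed in edgeR, DESeq2 or limma-voom and 0 had an unadjusted p under 0.05. The smallest p of these were those of the processing protease CASP1 (log2 fold change 0.20 ± 0.13) and the sensor NLRP1 (0.25 ± 0.23), with adjusted p of 0.805 and 0.891 in edgeR. GSDMD, of the same 6 genes, was at 0, 6.79 and 0 CPM in siCT and at 5.28, 7.86 and 0 CPM in siPDCD4. Its log2 fold change (0.92 ± 2.08) was thus poorly measured.

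**Figure D2:**
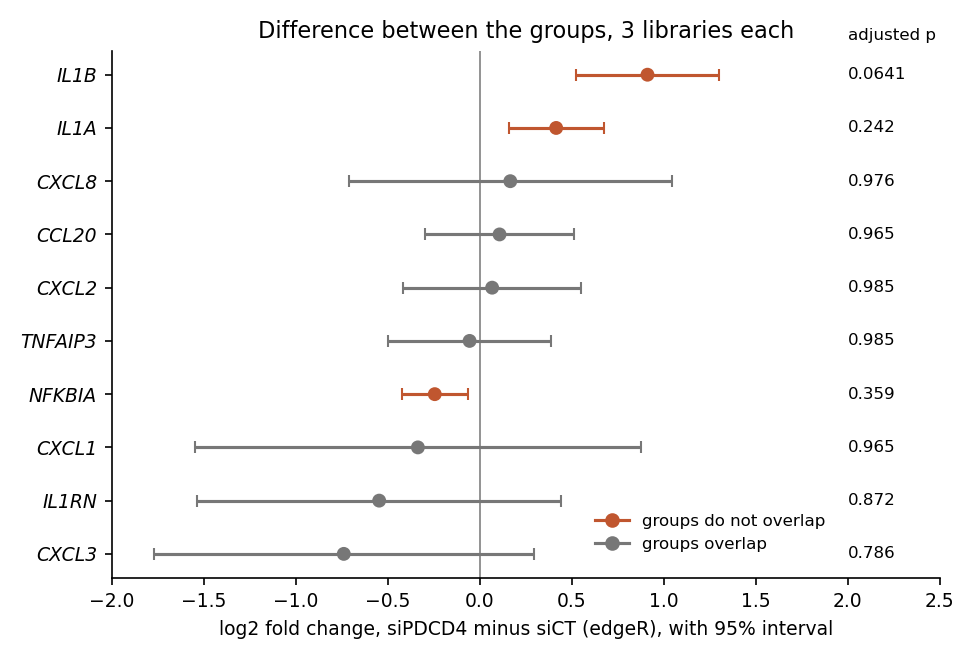
Log2 fold change of the 10 genes between siPDCD4 and siCT (x axis, points) with its 95% interval (lines) and the edgeR adjusted p at the right, 3 libraries per group. The intervals of IL1B, IL1A and NFKBIA leave out 0, none of the 10 adjusted p is under 0.05, and the widest intervals are those of CXCL1, CXCL3 and IL1RN.

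CXCL1, CXCL2 and CXCL3 are close relatives that attract neutrophils through the receptor CXCR2. CXCL1 lies on chromosome 4 from 73869393 to 73871308, CXCL2 from 74097040 to 74099196 and CXCL3 from 74036589 to 74038807. Their coding sequences were identical at 93.5% of bases between CXCL1 and CXCL2, 90.7% between CXCL1 and CXCL3 and 94.4% between CXCL2 and CXCL3, against 52.5% to 55.1% with CXCL8. Windows of 75 bases, the length of a read, were compared between the canonical mRNAs. Of these, 0.27% of CXCL1, 2.5% of CXCL2 and 2.3% of CXCL3 occurred unchanged in another of the 3. Reads were paired and windows were taken singly, so these shares do not measure how uncertain the split of reads was.

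CXCL1 was at 7.54, 8.60 and 22.1 CPM in siCT and at 7.63, 7.15 and 15.01 CPM in siPDCD4. Replicate 3 was far above the others in both groups, and the groups overlapped. The log2 fold change was -0.34 ± 0.50 with a 95% interval from -1.55 to 0.88 (edgeR adjusted p = 0.965). Without siCT replicate 3 it turned to 0.30, in a fit that kept the high replicate 3 of siPDCD4. With the replicate number as a second factor it was -0.28 ± 0.16 (edgeR adjusted p = 0.615).

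CXCL2 varied little across libraries, at 3.71, 3.50 and 3.47 CPM in siCT and 3.49, 4.15 and 3.58 CPM in siPDCD4. Its log2 fold change was 0.07 ± 0.22 (95% interval -0.42 to 0.55, edgeR adjusted p = 0.985), but it turned to -0.05 when only protein-coding transcripts were summed and to -0.01 without siPDCD4 replicate 2. CXCL3 was the least abundant, with 6 to 23 estimated counts per library. It was at 0.758, 1.08 and 1.81 CPM in siCT and at 0.682, 1.06 and 0.401 CPM in siPDCD4, with a log2 fold change of -0.74 ± 0.47 (95% interval -1.77 to 0.30, edgeR adjusted p = 0.786), which was -1.10 without siPDCD4 replicate 2 and -0.37 without siCT replicate 3. The groups of both genes overlapped. With the reads of CXCL1, CXCL2 and CXCL3 summed to 1 feature, the log2 fold change was -0.25 ± 0.32 (edgeR adjusted p = 0.952).

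CXCL8 encodes interleukin 8, a neutrophil attractant bound by CXCR1 and CXCR2, and lies on chromosome 4 from 73740519 to 73743716. It was at 10.1, 9.94 and 21.6 CPM in siCT and at 10.98, 13.3 and 21.9 CPM in siPDCD4. As in CXCL1, replicate 3 was the highest library of each group, and the groups overlapped. CXCL8 had a log2 fold change of 0.17 ± 0.37 (95% interval -0.71 to 1.04, edgeR adjusted p = 0.976). It was 0.62 without siCT replicate 3 and -0.17 without siPDCD4 replicate 3. Each of these fits kept the high replicate 3 of the other group. With the replicate number as a second factor the log2 fold change was 0.18 ± 0.14 (edgeR adjusted p = 0.715).

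CCL20 encodes a chemokine that draws CCR6-bearing dendritic cells and lymphocytes to epithelia. It lies on chromosome 2 from 227805739 to 227817564 and was at 12.5, 9.85 and 13.3 CPM in siCT and at 11.6, 11.01 and 15.8 CPM in siPDCD4. The groups overlapped, with a log2 fold change of 0.11 ± 0.18 (95% interval -0.30 to 0.51, edgeR adjusted p = 0.965), which was below 0 without siCT replicate 2 (-0.01) or siPDCD4 replicate 3 (-0.06). Over 50% of its counts in each library were assigned to a transcript with no annotated coding sequence, which starts at 227815369 (57.7% ± 5.57 in siCT and 59.0% ± 8.10 in siPDCD4, SD).

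The chemokines' own receptors were all but absent. CXCR1 and CXCR2 stayed at or below 0.114 CPM in every library, and CCR6 was at 0 in 5 libraries and at 0.971 CPM in siCT replicate 3. None of the 3 was tested. Of 21 listed chemokine receptors, CCR4 alone had enough reads to be tested (log2 fold change -0.04 ± 0.40). Of 33 listed chemokine ligands 10 were tested and none passed in edgeR, DESeq2 or limma-voom, 2 had an unadjusted p under 0.05, 15 had no reads in any library, and the median log2 fold change was -0.31. CXCL16, a membrane-bound chemokine, had the smallest p of this list. Its levels were 5.98, 5.99 and 5.42 CPM in siCT and 9.34, 8.44 and 7.44 CPM in siPDCD4 (log2 fold change 0.53 ± 0.18, edgeR adjusted p = 0.356). CCL22 followed, at 1.37 CPM or less (adjusted p = 0.538).

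NFKBIA encodes I-kappaB alpha, which holds NF-kB in the cytoplasm and is itself induced by it. It lies on chromosome 14 from 35401079 to 35404749. NFKBIA was at 113, 120 and 110 CPM in siCT and at 95.2, 93.5 and 101 CPM in siPDCD4. The lowest siCT library lay above the highest siPDCD4 library. NFKBIA had a log2 fold change of -0.24 ± 0.08, or 0.844 of the control level with a 95% interval from 0.745 to 0.956, and did not pass (edgeR adjusted p = 0.359). When single libraries were left out it stayed between -0.27 and -0.21. Of the 10 genes it was the one with the smallest standard error.

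TNFAIP3 encodes A20, a ubiquitin-editing enzyme that dampens NF-kB signalling, and lies on chromosome 6 from 137867214 to 137883314. Its levels were 13.99, 11.3 and 13.4 CPM in siCT and 9.18, 12.3 and 15.9 CPM in siPDCD4. The siPDCD4 libraries spanned all of the siCT range, and the log2 fold change was -0.06 ± 0.20 (95% interval -0.50 to 0.39, edgeR adjusted p = 0.985). It lay above 0 without siCT replicate 1 (0.01), without siPDCD4 replicate 1 (0.13) and over protein-coding transcripts only (0.12).

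Leaving out siCT replicate 3, the library that stood apart, moved the genes unequally. The log2 fold change went to 1.10 for IL1B, 0.50 for IL1A, -0.77 for IL1RN, 0.30 for CXCL1, 0.05 for CXCL2, -0.37 for CXCL3, 0.62 for CXCL8, 0.19 for CCL20, -0.27 for NFKBIA and -0.03 for TNFAIP3. IL1B alone passed then. Among the 10 genes, 5 (IL1A, IL1B, CXCL1, CXCL8 and CCL20) had their highest library in replicate 3 of both groups. The share of all tested genes with this order was not counted, so it is not shown to be a trait of these genes. Over all tested genes, deviations from the group means correlated at 0.20 between the replicate 3 libraries.

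**Figure D3:**
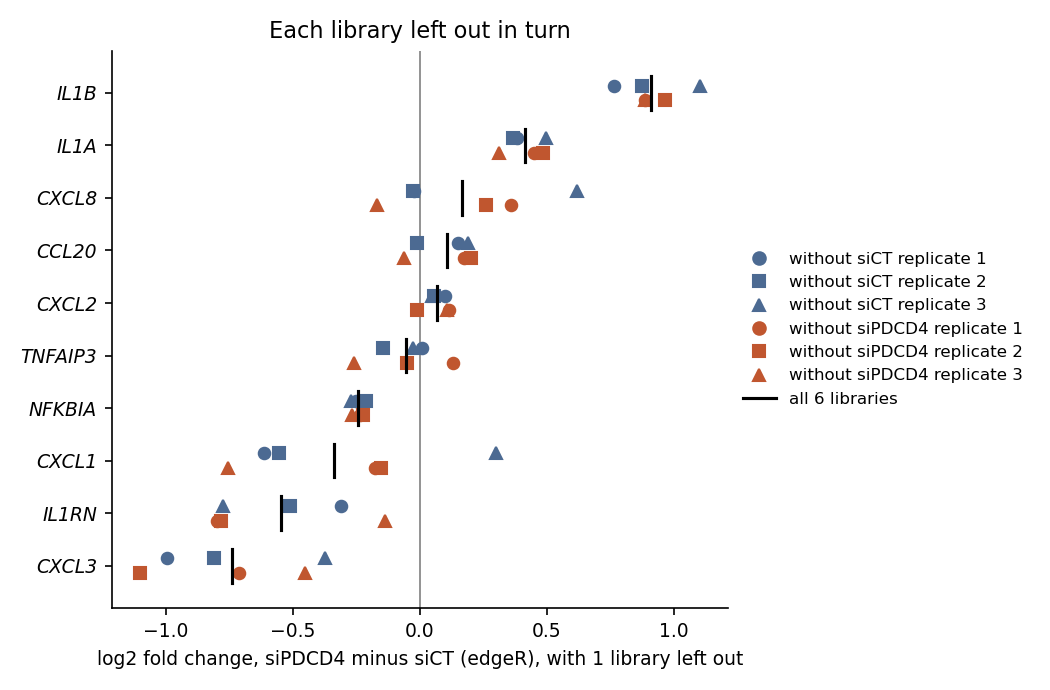
Log2 fold change of the 10 genes between siPDCD4 and siCT (x axis) with all 6 libraries (black bars) and with each library left out in turn (symbols, coloured by group and shaped by replicate number). IL1B, IL1A and NFKBIA stay on one side of 0, as do IL1RN and CXCL3, whereas CXCL1, CXCL2, CXCL8, CCL20 and TNFAIP3 cross it.

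Levels between genes were compared per transcript length, as summed TPM. In siCT, NFKBIA was the most abundant with 73.2 ± 6.07 TPM (SD, n = 3), above 91.5% of tested genes. IL1A followed with 26.9 ± 2.08 TPM and CCL20 with 19.9 ± 2.32 TPM, and these 3 did not overlap with each other. CCL20 was not separable from CXCL1 (11.9 ± 7.29 TPM), CXCL1 from CXCL8 (9.38 ± 4.31 TPM), nor CXCL8 from IL1B (7.55 ± 1.72 TPM).

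Below them stood CXCL2 (3.83 ± 0.165 TPM), TNFAIP3 (3.21 ± 0.242 TPM), IL1RN (1.94 ± 0.655 TPM) and CXCL3 (0.992 ± 0.422 TPM), of which the last 2 overlapped. The median tested gene was at 10.0 TPM in siCT, so CXCL8, IL1B and the genes after them lay below it. In siPDCD4, IL1B was at 14.3 ± 0.954 TPM and IL1A at 36.4 ± 4.57 TPM. The antagonist IL1RN was thus far less abundant than IL1A in every library.

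**Figure D4:**
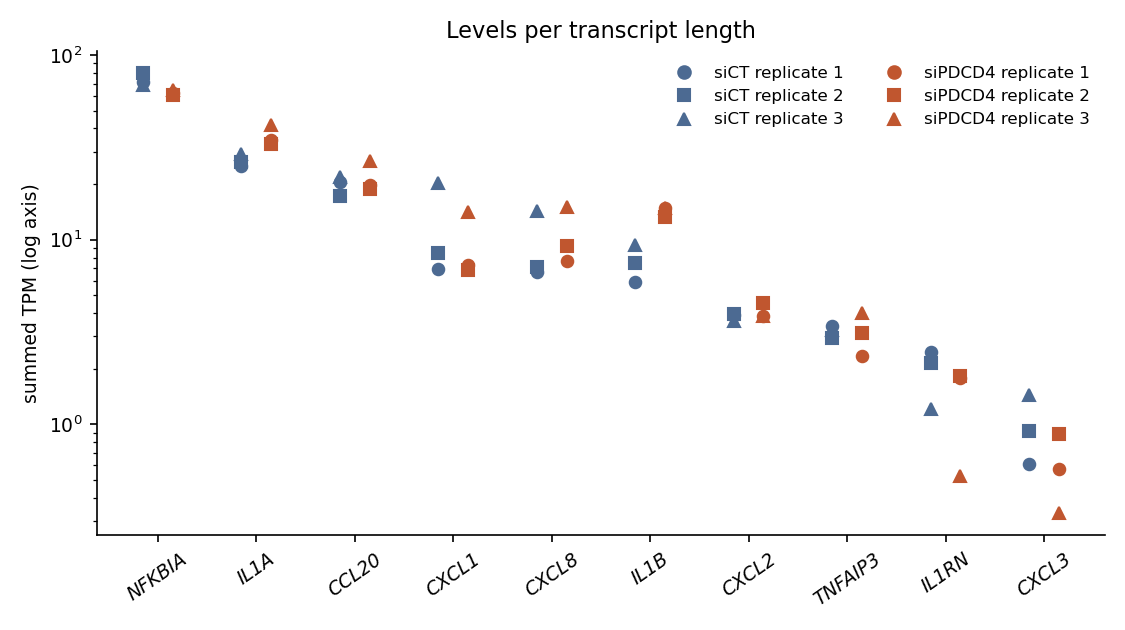
Summed TPM (y axis, log scale) of the 10 genes in each library (symbols, coloured by group and shaped by replicate number), ordered by their mean in siCT. NFKBIA is the highest and CXCL3 the lowest, and the 3 siPDCD4 libraries of IL1B lie above its 3 siCT libraries.

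The wider NF-kB pathway was read from lists. Of 15 tested NF-kB subunits and kinases none passed in edgeR, DESeq2 or limma-voom and 1 had an unadjusted p under 0.05, with a median log2 fold change of 0.00. The subunit gene RELA was at 35.02, 43.7 and 46.5 CPM in control and 39.8, 39.8 and 37.7 CPM in silenced cells, and NFKB1 at 94.3, 95.8 and 77.3 against 89.9, 79.3 and 80.5 CPM. The groups of both overlapped, with edgeR adjusted p of 0.954 and 0.918. The smallest p of this list were those of MAP3K14, the kinase of the non-canonical branch (log2 fold change 0.35 ± 0.14, edgeR adjusted p = 0.500), and of its inhibitor TRAF3 (0.16 ± 0.10, adjusted p = 0.770). Of 13 tested feedback inhibitors (14 listed) none passed in edgeR, DESeq2 or limma-voom, and NFKBIA and the deubiquitinase CYLD had an unadjusted p under 0.05. CYLD was at 39.7, 40.4 and 36.2 CPM in siCT, against 30.1, 33.8 and 31.8 CPM in siPDCD4 (log2 fold change -0.28 ± 0.10, edgeR adjusted p = 0.420).

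Among 24 tested NF-kB target genes outside the 10 (39 listed), 1 passed in edgeR (0 in limma-voom and 3 in DESeq2), and 8 had a log2 fold change above and 16 below 0. LIF, a cytokine of the interleukin 6 family, rose from 6.83, 6.15 and 7.36 CPM in siCT to 10.99, 14.3 and 16.6 CPM in siPDCD4 (log2 fold change 1.04 ± 0.19, edgeR adjusted p = 0.0443). The call did not hold when any 1 of the 6 libraries was left out (adjusted p 0.0524 to 0.176). BIRC3, an inhibitor of apoptosis, was at 71.0, 78.1 and 78.4 CPM in siCT and at 48.5, 51.0 and 61.9 CPM in siPDCD4 (-0.50 ± 0.11, edgeR adjusted p = 0.115). DESeq2 called BIRC3 as well as LIF. Members of the list thus lay on both sides, as did the 10 genes themselves.

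Of 16 tested genes listed under AU-rich mRNA decay and stability, 2 passed in edgeR on the lower side, where 0.261% of all tested genes passed. These were the phosphatase gene DUSP1 and PDCD4, which was itself the target of the siRNA. The list was drawn up with earlier results of these data known. Its count is thus no test of decay factors as a set. None passed on the higher side. In this list 7 genes had a log2 fold change above 0 and 9 below, with a median of -0.04. DUSP1 encodes a phosphatase that switches off p38, a kinase that stabilises cytokine mRNAs. It was at 227, 232 and 263 CPM in siCT and at 139, 157 and 162 CPM in siPDCD4 (log2 fold change -0.66 ± 0.09, edgeR adjusted p = 0.0150). The call was lost without siPDCD4 replicate 1 (edgeR adjusted p = 0.106) or replicate 2 (0.0690) and held in all other alternatives, with adjusted p down to 2.65e-07.

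**Figure D5:**
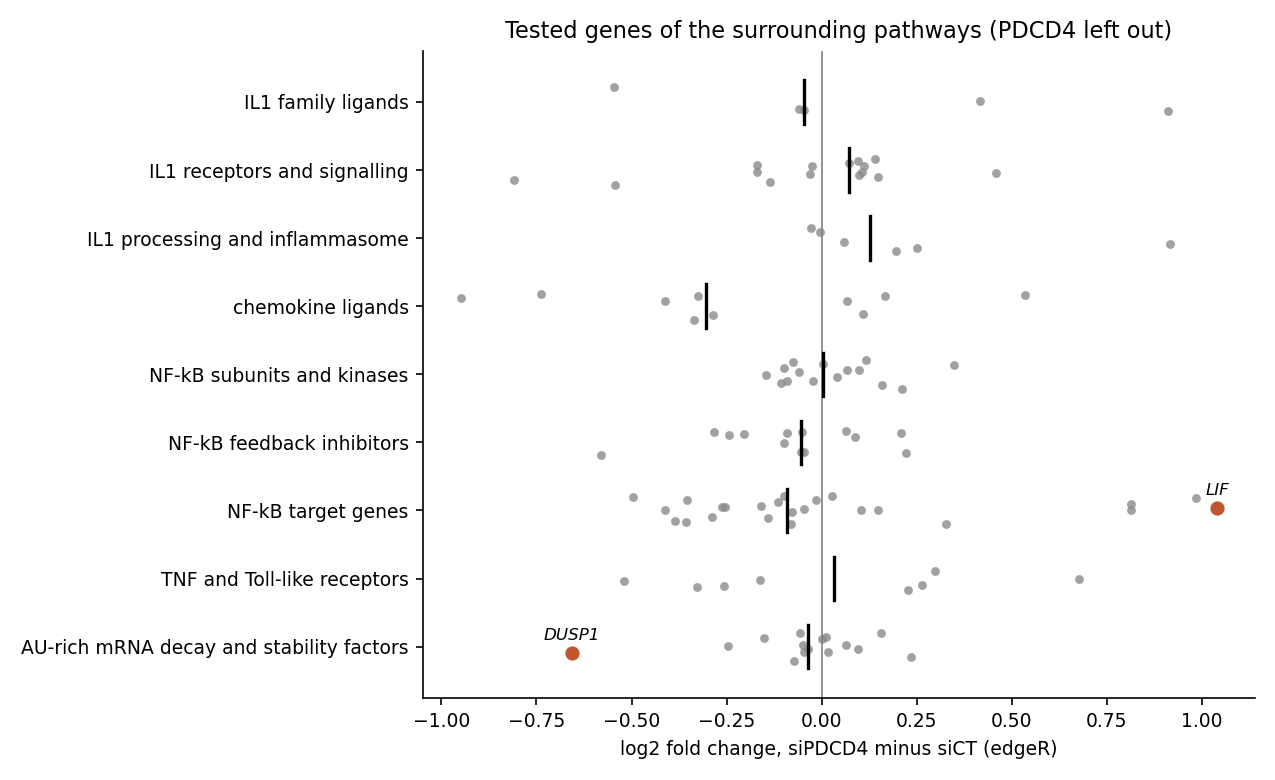
Log2 fold change between siPDCD4 and siCT (x axis) of the tested genes of 9 lists (rows, 1 point per gene, PDCD4 left out), with the median of each list as a black bar. LIF and DUSP1, in orange, passed an FDR of 5% in edgeR, and the medians of the lists lie between -0.31 and 0.13.

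Over the 6 libraries, the pattern of the 10 genes, taken as the mean of their centred log2 levels, was -0.11, -0.13 and 0.20 in siCT and -0.08, -0.01 and 0.13 in siPDCD4. Replicate 3 was thus the highest of each group. Among 9020 other genes with a mean of at least 10 CPM, the most alike by Pearson r over the 6 libraries were TCF7L2 (r = 1.00), RHOBTB3 (0.99), SMC4 (0.99), VEGFA (0.98) and IRS2 (0.98). In all, 127 genes exceeded 0.9. VEGFA, which encodes a growth factor for blood vessels, was at 91.8, 98.4 and 141 CPM in siCT and 98.1, 108.6 and 129 CPM in siPDCD4. With 6 points that share their libraries this is a description of the pattern only.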

How the data were processed

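Paired reads of 75 bases from total RNA of MCF10A cells make up 6 libraries. The authors ran Salmon on a GRCh38 transcript set and deposited an estimated count and a TPM value per transcript and library. The sources used here do not give the version of Salmon. Of 194142 listed transcripts, 181244 were matched to GENCODE 44. The unmatched ones held 5.47% to 6.21% of the counts and were not used here.

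Estimated counts were summed per gene, rounded and tested with edgeR 4.0.16 (R 4.3.3): robust quasi-likelihood F test, filterByExpr, TMM factors, a transcript length offset as in tximport, and group as the only factor. Benjamini-Hochberg adjustment ran over 13047 genes, and the threshold was an FDR of 5%. Intervals are 95% and come from the same fit, as the log2 fold change plus or minus a t quantile times its SE. DESeq2 1.42.0, limma-voom (limma 3.58.1), other factors and filters, protein-coding transcripts only, a replicate block and leaving out each library served as alternatives. The edgeR, DESeq2 and limma-voom steps were tested on simulated data. TPM were summed per gene, and used for levels only.

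The 10 genes, the 15 gene lists and the tests were chosen with earlier results of these data known. Named genes are the 10, PDCD4, list genes past the threshold, the 2 of each list with the smallest p, 8 receptors and NF-kB subunits listed by name, and the 5 genes closest in pattern. The markers KRT5 and PTPRC, and also GSDMD, were named after their values were seen. Promoters came from RefSeq (GRCh38.p14), 3' UTRs and coordinates from GENCODE 44 (GRCh38). Coding sequences were aligned with Biopython 1.88. Figures were drawn with matplotlib 3.10.9. SDs cover the 3 libraries of a group only. SEs are those of the difference between the groups and cover these 6 libraries only. They were derived from the edgeR fit, as the absolute log2 fold change over the square root of the F statistic.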

Additional observations from a re-analysis of the deposited data

How the results depend on the processing

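The count of the 10 genes past an FDR of 5% on the higher side was 0, and it was 1 with DESeq2, without the low-count filter, without the length offset and with the replicate block, and 0 to 1 when single libraries were left out. In each of these cases the gene was IL1B. Over all fits on 6 libraries, whether it passed or not, its log2 fold change lay between 0.89 and 0.97 and its adjusted p between 0.00126 and 0.0864. With 1 library left out these were 0.77 to 1.10 and 0.0301 (without siCT replicate 3, where it passed) to 0.288. None of the 10 passed on the lower side in any fit. Over all tested genes 56 passed, and 181 did so with DESeq2, 108 without the low-count filter, 128 without the length offset and 102 with the replicate block, and 17 (without siPDCD4 replicate 1) to 40 when a library was left out. The count was 22 without siPDCD4 replicate 2, 30 without siPDCD4 replicate 3 and 32 without siCT replicate 2.

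Leaving out 1 library turned the sign of CXCL1 (without siCT replicate 3, range over the 6 fits -0.75 to 0.30), CXCL8 (without siCT replicate 1 or 2 or siPDCD4 replicate 3, -0.17 to 0.62), CCL20 (without siCT replicate 2 or siPDCD4 replicate 3, -0.062 to 0.20), CXCL2 (without siPDCD4 replicate 2, -0.011 to 0.11) and TNFAIP3 (without siCT replicate 1 or siPDCD4 replicate 1, -0.26 to 0.13). Over protein-coding transcripts only it turned for CXCL2 (-0.045) and TNFAIP3 (0.12), and for CXCL2 within the sum of CXCL1, CXCL2 and CXCL3 (-0.25). None of these values passed the threshold, and the cause was not tested. LIF passed in the reported fit, but not with RLE factors (adjusted p = 0.0501), upper quartile factors (0.0544), limma-voom (0.0876), no robust estimation (0.0610) or protein-coding transcripts only (0.0804). The order of levels in siCT was the same in CPM per kilobase as in TPM.

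Replicate numbers were checked for pairing. Deviations from the group means correlated over genes at 0.09, 0.13 and 0.20 for libraries with the same number. For libraries with different numbers they correlated at -0.21 to 0.11. Whether libraries of the same number were paired was not settled by these values, and the labels give a number only. The reported fit left the number out. Of the 6 libraries, 5 correlated best with the library of their own number, and siPDCD4 replicate 1 did so with siCT replicate 2. With the replicate block IL1B passed (log2 fold change 0.92, adjusted p = 0.0457), as did IL1RAP (0.46, adjusted p = 0.0419). The block gave -0.28 ± 0.16 for CXCL1, 0.18 ± 0.14 for CXCL8 and -0.60 ± 0.29 for IL1RN (edgeR adjusted p = 0.615, 0.715 and 0.514). These standard errors were smaller than in the reported fit, while that of CXCL3 was 0.48 with the block and 0.47 without it. Applying the low-count filter before the TMM factors left 56 calls and IL1B at an adjusted p of 0.0838, and took LIF to 0.0518. This alternative was added after seeing the data, and the reported order, that of tximport, was chosen with both results known. Together with the replicate block it gave 77 calls and 0.0602 for IL1B. IL1RN and CXCL3 had at most 72 and 23 estimated counts in a library, and the part of depth in their intervals was not tested.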

Other observations

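TNF and Toll-like receptor genes, which feed the same pathway, were read from a list of 14 genes, of which 8 were tested and none passed in edgeR, while 2 had an unadjusted p under 0.05. CD14, a co-receptor for bacterial lipopolysaccharide, was at 6.84, 8.03 and 6.51 CPM in siCT and at 9.74, 12.2 and 12.4 CPM in siPDCD4 replicates 1, 2 and 3, with a log2 fold change of 0.68 ± 0.17 and an edgeR adjusted p of 0.187. TLR3, a sensor of double-stranded RNA, was at 16.9, 14.7 and 15.1 CPM in siCT and at 12.2, 12.5 and 12.6 CPM in siPDCD4 (-0.33 ± 0.13, edgeR adjusted p = 0.499). The groups of both genes did not overlap. ICAM1, an adhesion molecule for leukocytes and an NF-kB target, was chosen after its values were seen. It was at 5.03, 6.64 and 7.66 CPM in siCT and at 10.9, 9.67 and 13.2 CPM in siPDCD4 (0.81 ± 0.20, edgeR adjusted p = 0.180). DESeq2 called ICAM1.

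Among marker genes of other cell types, the proteoglycan gene DCN was at 30.6, 30.8 and 41.9 CPM in siCT and at 11.7, 16.2 and 20.2 CPM in siPDCD4, with a log2 fold change of -1.10 ± 0.20 and an edgeR adjusted p of 0.0541. DESeq2 called DCN, alone among the fibroblast markers. THY1, a surface protein of fibroblasts, was at 0.677, 0.743 and 1.05 CPM in siCT and at 0.673, 0.420 and 0.0619 CPM in siPDCD4 (-1.04 ± 0.59, edgeR adjusted p = 0.733). PECAM1 of endothelium was at 1.02, 0.987 and 1.01 CPM in siCT and 1.18, 2.01 and 4.28 CPM in siPDCD4 (edgeR adjusted p = 0.405). Of the leukocyte markers, CSF1R, the receptor for a macrophage growth factor, was at 2.56, 3.31 and 1.83 CPM in siCT and at 1.11, 1.31 and 2.65 CPM in siPDCD4 (-0.66 ± 0.39, edgeR adjusted p = 0.751). LYZ, which encodes lysozyme, was at 1.26, 1.42 and 2.59 CPM in siCT and at 1.35, 1.26 and 1.37 CPM in siPDCD4 (-0.38 ± 0.36, edgeR adjusted p = 0.897).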
